A study of Mus musculus with 2 samples.

Results

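The genes described here make the contractile cytoskeleton and the cell junctions of the neural folds: actin and its assembly factors, non-muscle myosin II with the GTPases and kinases upstream of it, the grainyhead factors, and the proteins of adherens junctions, tight junctions and apical polarity. A list of 55 mouse gene symbols was matched to the deposited gene table, and 53 of them were among its 16803 genes. Afdn was listed under its older symbol Mllt4 and Nectin2 under Pvrl2, while Shroom1 and Shroom2 were not analysed here. Genes were matched by symbol, and the list was drawn up with earlier results of these data known. Of the 53, 52 reached 10 reads summed over both libraries and were tested, while Cldn7 stayed under that minimum. Where a pair of values is given without further words, the first is from the control library and the second from the HTL treatment library.

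RNA came from NE4C cells, a mouse neural stem cell line that was cloned from embryonic brain cells lacking p53, grown on poly-L-lysine in Eagle MEM. The control library was made from a normal culture. The HTL treatment library came from cells given homocysteine thiolactone (HTL), a reactive ring form of homocysteine that modifies protein lysines. The labels give no dose, duration or age of the cultures, and the line is a single clone. With 1 library in each condition, no difference has a replicate check, and every interval and call covers the counting error of these 2 libraries only.

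Neural tube closure depends on cells of the neural plate narrowing their apical side, so that the sheet bends and its folds rise and meet. Shroom3 recruits the kinases Rock1 and Rock2 to the apical junctions, these kinases phosphorylate the myosin II light chain, and the resulting pull on cortical actin is passed from cell to cell through cadherins, catenins and their adaptors. E-cadherin and grainyhead factors mark the adjoining surface ectoderm, and the neural plate exchanges E-cadherin for N-cadherin as it forms.

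The table held 10350668 estimated reads for the control library and 9102073 for the HTL treatment library. Called genes differed at least 2-fold with an adjusted p not above 0.001, the cutoffs in the study's methods. Markers of the labelled cell type ranged from abundant to nearly absent. Nes, an intermediate filament gene of neural progenitors, was at 25.1 and 24.1 FPKM (fragments per kilobase, scaled to sequencing depth) in the control and HTL treatment libraries. Of 8 neural stem cell markers tested, 3 were called lower (37.5%, against 7.98% of all genes tested) and 1 higher (12.5%, against 2.81%), and their summed level was 193 and 138 FPKM. Vim, which took the largest part of that sum in control, was at 78.5 and 38.8 FPKM, and its log2 ratio of -1.01 was -0.92 to -0.88 under the other scalings named below, short of 2-fold. Sox2 was at 34.7 FPKM in control and 12.6 after HTL. Sox1 was at 1.14 and 0.32 FPKM, and Fabp7 had 2 reads in each library. Notch1, the higher one, rose from 124 to 231 reads, with a log2 ratio of 1.08. The median log2 ratio of the 8 was -0.01, with 4 above 0 and 4 below. Vim, Sox2, Sox1, Notch1, Dcx and Thy1 were singled out after their values were seen. Of 6 neuron markers tested, 1 was called lower (16.7%), and the summed level was 37.4 and 51.8 FPKM. Stmn2, with the most reads of them, was at 15.7 and 23.3 FPKM. Dcx, the lower one, had 88 and 29 reads, with a log2 ratio of -1.40. The median log2 ratio of the 6 neuron markers was -0.13, with 3 above 0 and 3 below. Neurod1 had 7 reads and 1 read. The 6 mesenchyme and neural crest markers tested summed to 51.2 and 34.5 FPKM, with 1 called higher and 1 lower (16.7% each way). The median log2 ratio of the 6 was 0.63, and 4 of them lay above 0. Foxd3, the lower one, was at 33.0 and 7.93 FPKM and made up most of the control sum. Thy1, the higher one, was at 4.42 and 12.1 FPKM, and Sox10 had 0 reads and 2 reads.

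Of the 52 genes tested, 5 passed the 2-fold call. The genes Cdh1, Myl9, Cldn6 and Pard6b were higher after HTL, which was 7.69% of the genes tested against 2.81% of all 13442 genes tested in the table. Grhl2 alone was lower, which was 1.92% of the genes against 7.98% of all genes tested. At a 1.5-fold difference and the same adjusted p, 6 genes were higher and 6 lower, or 11.5% each way, against 7.37% higher and 16.2% lower among all genes tested. The lesser cutoff added Cdh3 and Lrp2 among the higher genes, and Rock2, Cfl2, Efna5, Rock1 and Marcks among the lower ones. Within 0.5 of 0 lay 33 of the 52 log2 ratios, or 63.5%, against 55.3% of all genes tested. By the size of the ratio alone, Marcks under all 3 other scalings named below, and Rock1 under 2 of them, fell short of 1.5-fold, while Myl6 under all 3 and Pard3 under 2 reached it. In bulk RNA, fewer cells of a type and less RNA per cell cannot be told apart.

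The median log2 ratio of the 52 genes, HTL treatment over control with counts scaled to column totals, was -0.04, and that of all genes tested was -0.14. Of the 52, 25 lay above 0 and 27 below, and 34 lay above the median of all genes tested. The 95% counting interval was wholly above 0 for 23 genes, wholly below for 19 and crossed 0 for 10. Other ways of scaling the libraries raised every log2 ratio by 0.13 (TMM), 0.14 (median of ratios) or 0.093 (upper quartile). Under at least 1 of these 3 scalings the sign turned for 9 genes, Evl, Marcksl1, Myh10, Abl1, Abl2, Zyx, Actn1, Nectin2 and Lmo7, so no direction is given for them. Measured from the median of their length decile, described below, Pfn1, Enah, Arhgef11 and Afdn changed sign as well.

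**Figure D1:**
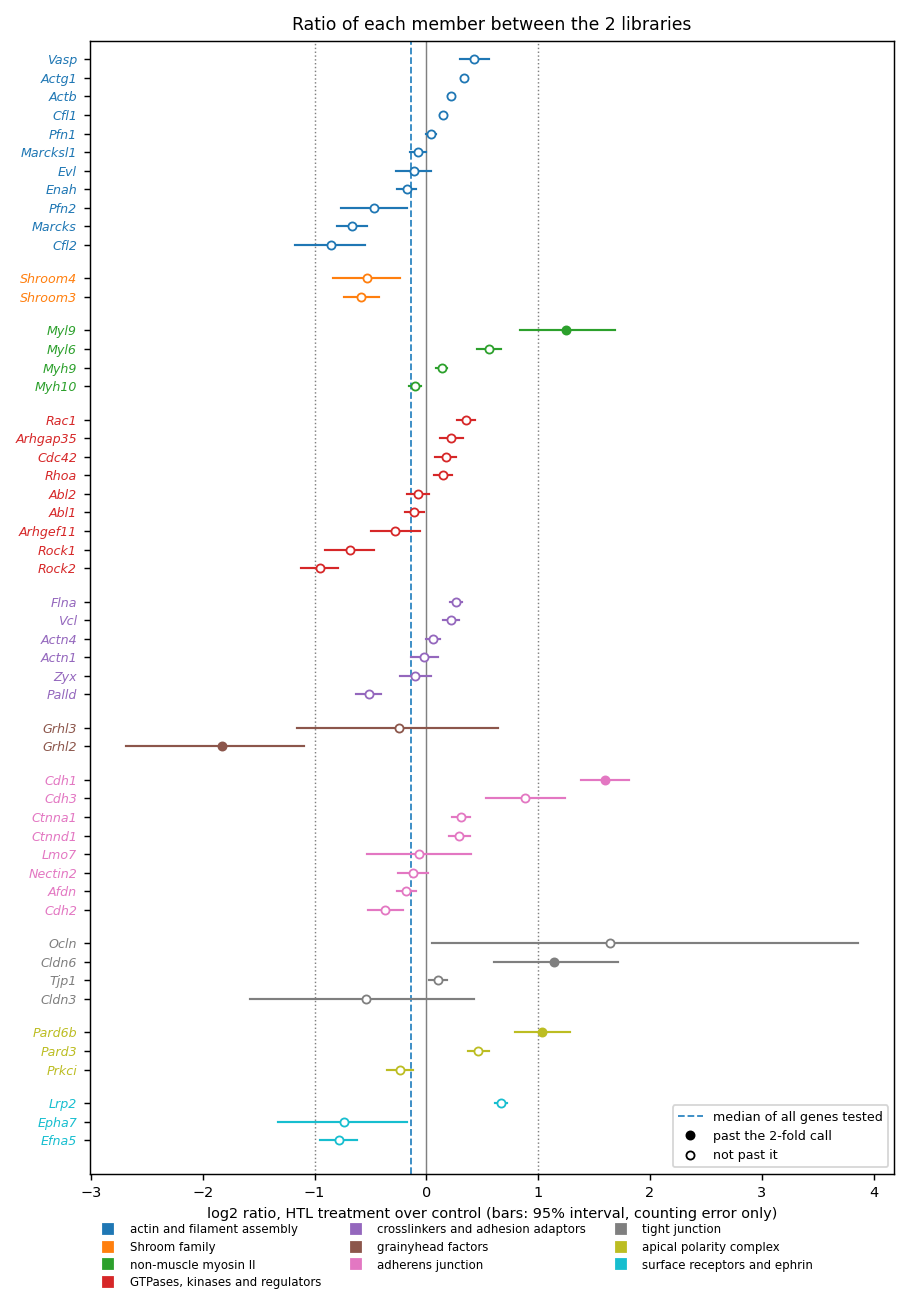
Log2 ratio of HTL treatment over control for the 52 genes tested, grouped by role, with the 95% counting interval as a bar, filled points for genes past the 2-fold call, dotted lines at a 2-fold difference and a dashed line at the median of all genes tested. The 5 filled points are Cdh1, Myl9, Cldn6 and Pard6b on the right and Grhl2 on the left, and the widest bar belongs to Ocln, with 4 and 12 reads.

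Cdh1 encodes E-cadherin, the adhesion receptor of epithelial adherens junctions, and spans chr8:109127251-109194146 on the plus strand of NCBIM37 (mm9). It had 251 reads in control and 667 after HTL, or 5.40 and 16.3 FPKM. That was a 3.02-fold rise, with a log2 ratio of 1.59 and a 95% counting interval of 1.38 to 1.81. Cdh1 was the furthest of the called genes from 0 in the upward direction.

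Myl9 encodes a regulatory light chain of non-muscle and smooth muscle myosin II and spans chr2:156601156-156607394 on the plus strand. Its reads were 70 in control and 147 after HTL, or 6.35 and 15.1 FPKM, a 2.38-fold rise with a log2 ratio of 1.25 (0.84 to 1.69). Cldn6, a claudin of embryonic epithelia at chr17:23816332-23819413 on the plus strand, had 43 and 84 reads, or 2.75 and 6.09 FPKM. Its log2 ratio was 1.14 (0.60 to 1.72). Pard6b, a scaffold of the apical PAR complex at chr2:167906504-167926703 on the plus strand, had 213 and 385 reads, or 6.0 and 12.3 FPKM. The log2 ratio of Pard6b was 1.04 (0.79 to 1.29), the closest of the called genes to the 2-fold cutoff. All 3 genes were low or moderate in the control library beside the main actin and myosin genes described next.

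Grhl2, a grainyhead transcription factor that drives epithelial genes including Cdh1, spans chr15:37162791-37293324 on the plus strand. It had 74 reads in control and 18 after HTL, or 1.43 and 0.39 FPKM. It fell by 1.83 on the log2 scale, with an interval from -2.69 to -1.10. With FPKM + 1 its log2 ratio was -0.81 and not called, and it was not tested where a mean of at least 50 reads was asked for. Grhl2 lay on the opposite side of 0 from Cdh1. An exon of Grhl2 overlaps one of Gm16136 on the other strand, and the use of strand in counting is not given in the sources used here, so reads of the pair cannot be told apart. Its relative Grhl3, needed for closure of the caudal neural tube, had 27 and 20 reads, and its log2 ratio of -0.24 had an interval from -1.16 to 0.64.

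The promoters of the called genes are shown because 4 genes of the actomyosin group carry a CArG box, a motif explained below, before their start sites, although Myl9 alone of the 4 was called. Windows of 250 bases before each start site were taken from RefSeq on GRCm38.p6, which is not the build of the deposited table, and 44 of the 53 genes had at least 1 window. Cdh1 and Grhl2 had none. Both strands were searched for 3 motifs. The first was the CArG box, the binding sequence of serum response factor, in which A and T bases stand between CC and GG. The others were CAGGTG, an E-box bound by Zeb and Snail factors, and AACCNGTT, the letters of the grainyhead site. The windows of the 3 called genes, with matches in capitals, read from 5′ to 3′ on the strand of the gene.
Myl9, chr2:156775214-156775463, plus strand: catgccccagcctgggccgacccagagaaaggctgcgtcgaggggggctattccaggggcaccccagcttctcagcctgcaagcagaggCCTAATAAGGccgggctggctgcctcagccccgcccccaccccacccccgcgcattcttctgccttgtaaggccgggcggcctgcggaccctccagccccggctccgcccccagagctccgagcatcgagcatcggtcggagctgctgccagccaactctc
Pard6b, chr2:168080754-168081003, plus strand: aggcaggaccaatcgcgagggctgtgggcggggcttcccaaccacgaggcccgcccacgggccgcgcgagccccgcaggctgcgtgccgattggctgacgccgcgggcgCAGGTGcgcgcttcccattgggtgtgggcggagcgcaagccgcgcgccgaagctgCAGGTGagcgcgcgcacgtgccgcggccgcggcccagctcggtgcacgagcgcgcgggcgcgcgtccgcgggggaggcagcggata
Cldn6, chr17:23679115-23679364, plus strand: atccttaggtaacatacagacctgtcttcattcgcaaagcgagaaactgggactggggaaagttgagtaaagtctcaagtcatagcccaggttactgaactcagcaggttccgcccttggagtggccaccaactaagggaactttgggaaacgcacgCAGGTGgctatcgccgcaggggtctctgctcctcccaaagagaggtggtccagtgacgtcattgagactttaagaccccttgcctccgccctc

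The match in Myl9 is a CArG box that begins 161 bases before the start site. Pard6b holds CAGGTG at 141 and at 86 bases before it, and Cldn6 at 93 bases. Over all 32851 windows of this length, 1.47% held a CArG box, 17.2% held CAGGTG and 1.79% held AACCNGTT. Of the 59 windows of the genes described here, 6.78% held a CArG box, 18.6% held CAGGTG and 1.69% held AACCNGTT, the last in Actn4 alone. The CArG box was found in 4 genes, all of them coding for actin, myosin light chains or an actin-binding adaptor, and the other 3 are shown in capitals with the bases around them.
Myl6, chr10:128493040-128493069, minus strand: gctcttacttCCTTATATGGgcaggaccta
Actg1, chr11:120348566-120348595, minus strand: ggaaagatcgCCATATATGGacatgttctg
Vcl, chr14:20929161-20929190, plus strand: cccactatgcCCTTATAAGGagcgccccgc

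Beside these letters, the log2 ratios were 1.25 for Myl9, 0.56 for Myl6, 0.34 for Actg1 and 0.22 for Vcl. All 4 intervals lay above 0, as did 23 among the 52 genes tested, and only that of Myl9 went with a call. Myl9 and Myl6 are in the decile of shortest transcripts, where the median of all genes tested was 0.14. The letters are a description of the windows and no binding was measured.

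The actins, Cfl1 and Pfn1 were the most abundant genes described here, and none of the 11 genes of actin and filament assembly passed the 2-fold call. Cytoplasmic beta-actin, Actb, was at 1266 FPKM in control and 1469 after HTL, with a log2 ratio of 0.22 (0.19 to 0.24). Gamma-actin, Actg1, was at 1179 and 1488 FPKM, with a log2 ratio of 0.34 (0.31 to 0.36). These actins are closely related and the estimated counts of both were fractional, so the division of reads between them is uncertain. Together they took 0.471% of reads in control and 0.570% after HTL. Actg1 also shares exon sequence on its own strand with AL669855.1.

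The filament-severing cofilins and the monomer-binding profilins each consist of an abundant and a scarcer form here. Cfl1 had 1194 FPKM in control and 1323 after HTL, a log2 ratio of 0.15 (0.12 to 0.19). Cfl2 fell from 8.57 to 4.71 FPKM, with 262 and 127 reads, for a log2 ratio of -0.86 (-1.18 to -0.55), which passed the 1.5-fold call. The abundant cofilin was thus nearly level while the scarce form was lower. Pfn1 was at 840 and 863 FPKM, with a log2 ratio of 0.04 and an interval that crossed 0. Pfn2, the neural profilin, was at 11.7 and 8.47 FPKM, with a log2 ratio of -0.46 (-0.76 to -0.17).

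The Ena/VASP proteins, which protect growing filament ends from capping and whose combined loss disturbs neural tube closure, differed from each other. Vasp was at 37.6 and 50.4 FPKM, with a log2 ratio of 0.43 (0.30 to 0.56). Enah had 2559 and 1992 reads, with a log2 ratio of -0.18 (-0.26 to -0.09) that was 0.20 relative to its length decile. Evl was at 35.6 and 33.3 FPKM. Of this family Vasp alone had an interval above 0. The MARCKS proteins tie actin to the plasma membrane, and loss of Marcks causes exencephaly in mice. Marcks fell from 1283 to 712 reads, or from 29.4 to 18.5 FPKM, a log2 ratio of -0.66 (-0.80 to -0.53). Under the other scalings it lay between -0.57 and -0.53, short of 1.5-fold. Marcksl1 was more abundant, at 211 and 200 FPKM.

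The Shroom scaffolds were measured for Shroom3 and Shroom4 only. Shroom3, the gene mutated in a classical mouse model of open neural folds, had 898 and 527 reads, or 12.2 and 8.11 FPKM. Its log2 ratio was -0.58 (-0.74 to -0.43), just short of the 1.5-fold cutoff. Shroom4 had 242 and 147 reads, or 2.80 and 1.93 FPKM, with a log2 ratio of -0.53 (-0.84 to -0.23). Both intervals lay below 0, and both ratios kept that sign under the other scalings. Shroom3 has an exon that overlaps 4932430I15Rik on the other strand.

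Among the myosin II genes, the light chains stood higher after HTL and the heavy chains were nearly level. Myl6, the essential light chain, was at 196 FPKM in control and 289 after HTL, with 1326 and 1719 reads, for a log2 ratio of 0.56 (0.46 to 0.66). It was short of the 1.5-fold cutoff with column totals and past it in size under the other scalings, at 0.65 to 0.70, while Myl9 passed with its values given above. The heavy chain Myh9 was at 96.1 and 105 FPKM, with a log2 ratio of 0.14 (0.09 to 0.18). The heavy chain Myh10, also called non-muscle myosin IIB and needed for apical constriction, was at 77.7 and 72.1 FPKM, with a log2 ratio of -0.11 that became 0.02 under TMM.

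The GTPases and kinases upstream of myosin went different ways. The GTPases Rhoa, Rac1 and Cdc42, switches that set actin assembly and contraction, were all abundant, with control levels of 124, 102 and 87.1 FPKM. Their log2 ratios were 0.15, 0.35 and 0.17, each with an interval above 0 and none past a call. Rock1 and Rock2, kinases that act on the myosin light chain and its phosphatase, were both lower. Rock2 fell from 954 to 433 reads, or from 11.4 to 5.85 FPKM, with a log2 ratio of -0.95 (-1.12 to -0.79). Rock1 fell from 494 to 270 reads, or from 7.63 to 4.73 FPKM, with a log2 ratio of -0.69 (-0.91 to -0.47). Rock1 passed the 1.5-fold call under column totals and had a log2 ratio of -0.55 under TMM, which is short of it. Both transcripts are long, at 6187 bases for Rock1 and 8012 for Rock2.

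Arhgap35, a GTPase-activating protein whose loss leaves the neural tube open, had 1588 and 1631 reads, with a log2 ratio of 0.22 (0.12 to 0.32). Arhgef11, an exchange factor recruited to apical junctions, had 410 and 297 reads, with a log2 ratio of -0.28 (-0.50 to -0.06). The kinases Abl1 and Abl2, whose joint loss gives neural tube defects, were at 39.5 and 36.7 FPKM and at 15.5 and 14.7 FPKM. None of these regulators and kinases passed a call.

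The 6 crosslinkers and adhesion adaptors held no call at either cutoff. Flna, which crosslinks filaments into a mesh, was at 67.0 and 80.4 FPKM with a log2 ratio of 0.27 (0.21 to 0.32). Vcl, which couples cadherins under tension to actin, was at 57.3 and 66.6 FPKM with a log2 ratio of 0.22 (0.15 to 0.29). Palld, a bundling scaffold needed for cranial closure, had 1835 and 1127 reads, or 35.9 and 25.8 FPKM, and a log2 ratio of -0.52 (-0.63 to -0.41). The alpha-actinins were close to level, with Actn4 at 106 and 110 FPKM and Actn1 at 31.1 and 30.6 FPKM. Zyx, which marks filaments under strain, was at 33.8 and 31.9 FPKM.

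**Figure D2:**
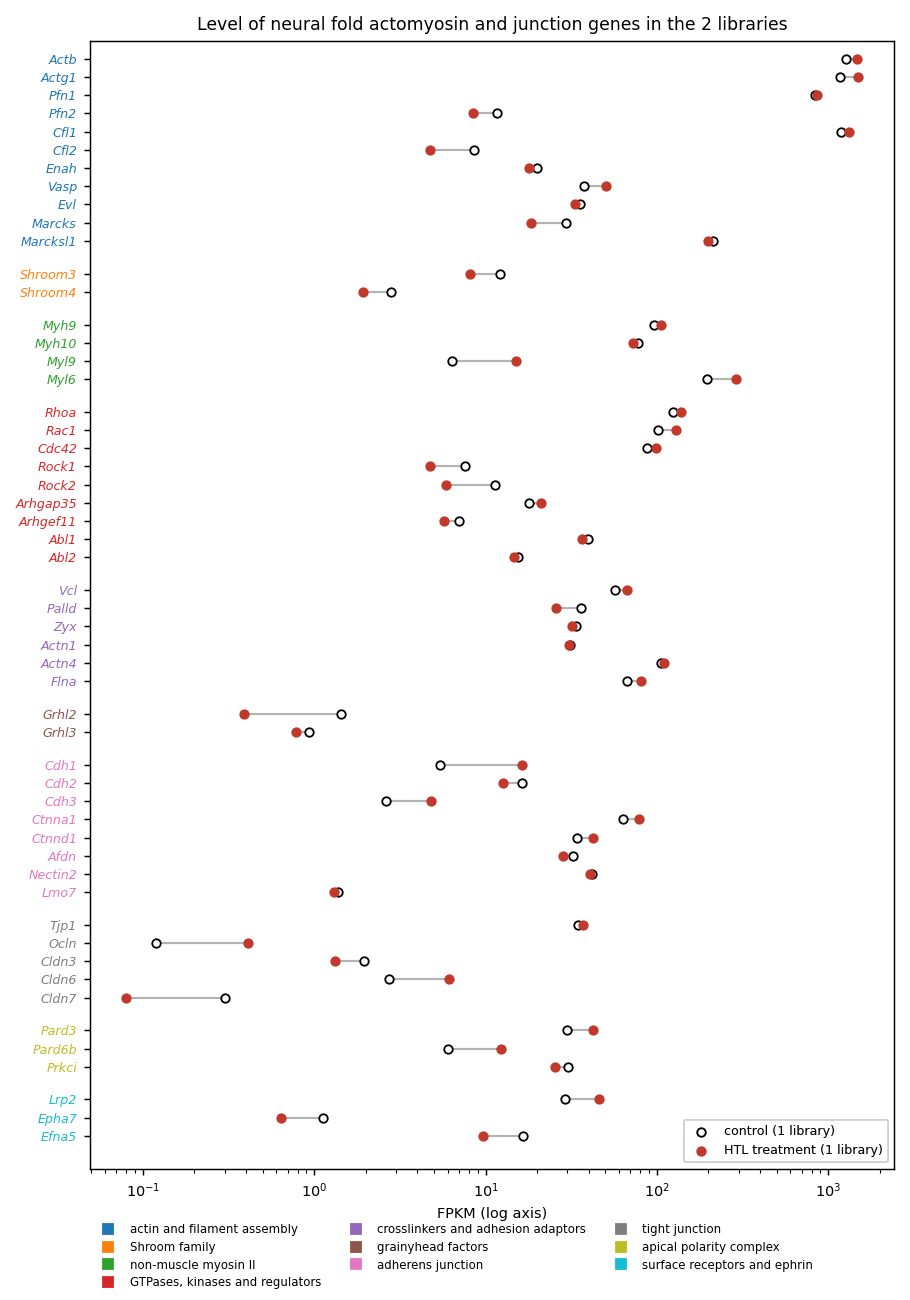
Level of the 53 listed genes in FPKM on a log axis, with an open point for the control library and a filled point for the HTL treatment library, grouped by role. The actins, Cfl1 and Pfn1 lie near or above 840 FPKM with short gaps between the libraries, while Cdh1, Myl9, Grhl2, Ocln and Cldn7 show wide gaps at lower levels.

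Of the 37 genes tested at 10 FPKM or more in the control library, 4 passed the 1.5-fold call in either direction, or 10.8%, against 25.8% of all genes tested at that level. Of the 15 below 10 FPKM, 8 did, or 53.3%, against 21.9% of all genes tested below it. The genes described here took 1.44% of reads in control and 1.62% after HTL.

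The adherens junction genes divided between cadherins that rose and a cadherin that did not. Cdh3, P-cadherin, at chr8:109034791-109080808 on the plus strand, lies before Cdh1 on the same chromosome. It rose from 110 to 179 reads, or from 2.61 to 4.82 FPKM, with a log2 ratio of 0.88 (0.54 to 1.24). That passed the 1.5-fold call, and with TMM or median of ratios scaling its log2 ratio, 1.01 or 1.02, passed the 2-fold call as well. Cdh2, N-cadherin of the neural plate, had 831 and 566 reads, or 16.4 and 12.7 FPKM, with a log2 ratio of -0.37 (-0.53 to -0.21). In the control library Cdh2 was the most abundant of these 3 cadherins per length, and in the HTL treatment library Cdh1 was.

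The cytoplasmic partners of the cadherins were abundant and differed less. Ctnna1, alpha-catenin, which links the cadherin complex to actin, was at 63.6 and 78.8 FPKM with a log2 ratio of 0.31 (0.23 to 0.39). Ctnnd1, p120 catenin, which holds cadherins at the surface, was at 34.3 and 42.2 FPKM with a log2 ratio of 0.30 (0.20 to 0.39). Afdn, the afadin that joins nectins to actin, was at 32.4 and 28.5 FPKM with a log2 ratio of -0.18 (-0.27 to -0.10). Neither catenin nor afadin passed a call. Nectin2 was at 41.6 and 40.5 FPKM, and Lmo7, an afadin-binding protein of apical junctions, had 88 and 74 reads.

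Tight junction genes other than Tjp1 were scarce. Tjp1, the scaffold ZO-1, was at 34.5 and 37.0 FPKM with a log2 ratio of 0.10 (0.02 to 0.19). Ocln, occludin, had 4 reads in control and 12 after HTL, and its log2 ratio of 1.65 had an interval from 0.048 to 3.86 and no call. Cldn3 had 25 and 15 reads, with a log2 ratio of -0.54 (-1.58 to 0.43), and an exon that overlaps Wbscr25 on the other strand. A difference in Cldn3 could not be resolved at this depth, and the size of that in Ocln is loosely bounded. Cldn7 had 3 reads and 1 read, so no ratio is given. Of the claudins in the list, Cldn6 alone had a call.

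In the apical polarity complex, which sets where junctions and contractile actin are built, Pard3 was at 29.8 and 42.7 FPKM with 1613 and 1958 reads. Its log2 ratio was 0.46 (0.37 to 0.56). The atypical protein kinase C gene Prkci was at 30.1 and 25.5 FPKM with a log2 ratio of -0.24 (-0.35 to -0.12). With the values of Pard6b given above, the scaffolds and the kinase of the complex lay on different sides of 0.

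The surface receptors and the ephrin spread as widely. Lrp2, the endocytic receptor megalin, whose loss impairs forebrain closure, rose from 4727 to 6598 reads, or from 29.1 to 46.1 FPKM. Its log2 ratio was 0.67 (0.61 to 0.72), and at 15467 bases its transcript was the longest of the group. Efna5, an ephrin that acts with Epha7 in the fusion of the cranial folds, fell from 915 to 467 reads, or from 16.7 to 9.64 FPKM, with a log2 ratio of -0.78 (-0.95 to -0.62). Epha7, its receptor, had 76 and 40 reads, or 1.12 and 0.64 FPKM, and a log2 ratio of -0.73 (-1.33 to -0.17) that did not pass a call. Ligand and receptor thus had similar ratios, with a far wider interval for the receptor.

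Related genes were then compared within each library, since the ratio of a pair of genes does not depend on how the libraries are scaled. The trend with transcript length given below need not cancel where the lengths of a pair differ, and the shifts were not adjusted for it. Enah, for example, has 12043 bases and Vasp 2267, and Cfl1 has 1196 and Cfl2 2940. The 21 pairs, from 15 families, were listed with their values known, so the counting intervals are a description. For 15 pairs the interval of the shift excluded 0, and for 5 the shift was over 2-fold. With FPKM + 1 the shift was over 2-fold for 3, since Cfl1 to Cfl2 came to 0.89 and Grhl2 to Grhl3 to -0.69, and with 5 reads added it was over 2-fold for 4. The widest was between E-cadherin and N-cadherin. Cdh1 stood at 0.330 of the FPKM of Cdh2 in the control library and at 1.29 of it in the HTL treatment library, a 3.90-fold shift with a log2 value of 1.96 (1.70 to 2.23). Against Cdh3, Cdh1 shifted by 0.71 (0.29 to 1.12) on the log2 scale and Cdh2 by -1.25 (-1.65 to -0.87).

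Cldn3 to Cldn6 shifted by -1.68 (-2.88 to -0.55) and Grhl2 to Grhl3 by -1.59 (-2.83 to -0.38), both with few reads. Between the cofilins, Cfl1 had 139 times the FPKM of Cfl2 in the control library and 281 times in the HTL treatment library, a log2 shift of 1.01 (0.70 to 1.33). Pfn1 to Pfn2 shifted the same way by 0.51 (0.21 to 0.81). In both of these families the scarce form lost ground to the abundant one. Enah to Vasp shifted by -0.60 (-0.76 to -0.45), Marcks to Marcksl1 by -0.59 (-0.74 to -0.44) and Myl6 to Myl9 by -0.69 (-1.14 to -0.26). Pairs whose interval included 0 were Rock1 with Rock2 at 0.27 (-0.0085 to 0.54), Shroom3 with Shroom4 at -0.05 (-0.39 to 0.30), Abl1 with Abl2, Actn1 with Actn4, Rhoa with Cdc42 and Enah with Evl. For those pairs no unequal change was detectable at this depth.

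**Figure D3:**
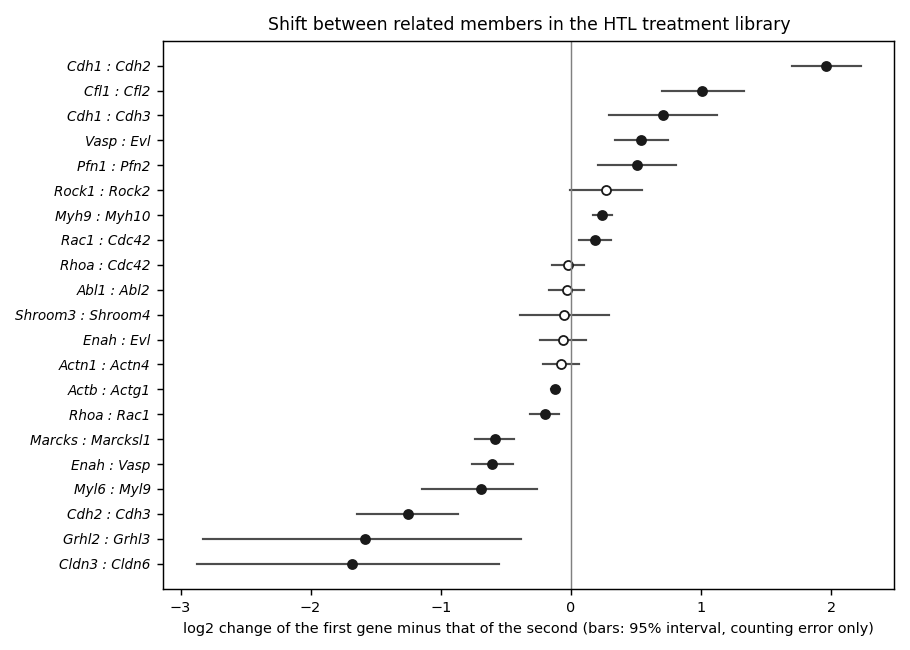
Shift between related genes, as the log2 ratio of the first gene minus that of the second, for 21 pairs with 95% counting intervals as bars, filled points where the interval excludes 0. Cdh1 against Cdh2 is furthest to the right at 1.96, and Cldn3 against Cldn6 furthest to the left at -1.68.

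Transcript length moved with the ratio across the whole table. Over all genes tested the median was 0.14 in the decile of shortest transcripts and -0.38 in that of the longest. The Spearman correlation of the log2 ratio with length was -0.27 across the 52 genes and -0.18 across all 13442. These points are genes of the same 2 libraries and not independent replicates. Of the 52, 28 were in the 3 deciles of longest transcripts, among them 5 of the 6 genes lower at 1.5-fold and 3 of the 6 higher. Measured from the median of its own length decile, the log2 ratio was -0.58 for Rock2, -0.41 for Rock1 and -0.21 for Shroom3, and it was 1.80 for Cdh1, 1.04 for Lrp2 and -1.55 for Grhl2. The part of length in these ratios was not tested.

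**Figure D4:**
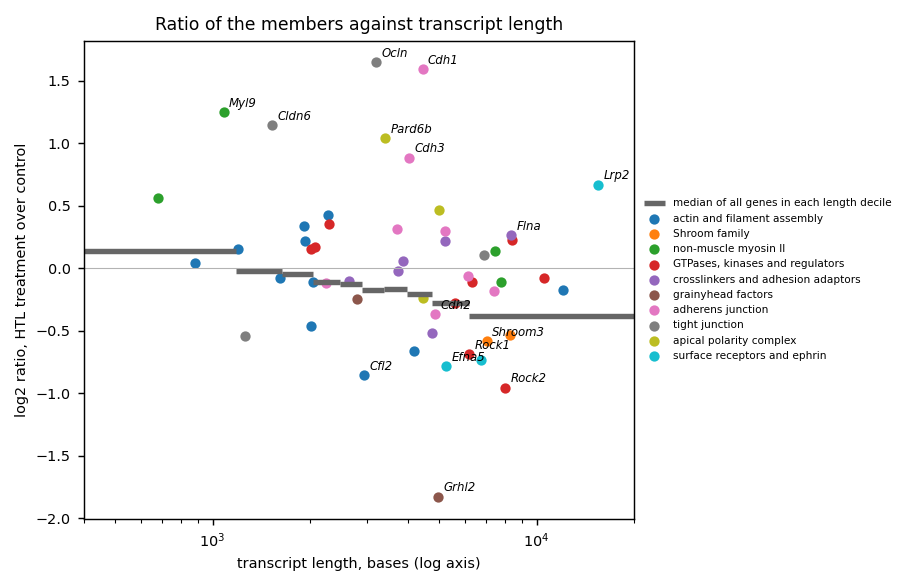
Log2 ratio of the 52 genes against transcript length in bases on a log axis, colored by role, with grey steps at the median of all genes tested in each length decile. The steps go down from 0.14 to -0.38, the points of Rock1, Rock2 and Shroom3 lie below them, and Lrp2 and Cdh1 lie well above them.

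Other genes of the same machinery were counted for comparison, from lists of 120 genes that did not include the 55. Of 116 tested, 4 were called higher and 1 lower, or 3.45% and 0.862%, against the 2.81% and 7.98% of all genes tested. At 1.5-fold, 11 were higher and 13 lower, or 9.48% and 11.2%, against 7.37% and 16.2% of all genes tested, and the median log2 ratio was 0.05. Among 33 other actin assembly genes Gsn, the severing protein gelsolin, rose from 44 to 119 reads, with a log2 ratio of 1.61, the call of that list (3.03% higher). None of 20 other myosin II and tropomyosin genes passed the 2-fold call. Their median was -0.26, and 14 of the 20 lay below 0, as did 58.7% of all genes tested.

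Among 32 other junction and polarity genes Crb3, an apical membrane protein, rose from 8 to 34 reads with a log2 ratio of 2.20 (1.13 to 3.60), and 6 were higher and 3 lower at 1.5-fold, or 18.8% and 9.38%, against 7.37% and 16.2% of all genes tested. Of 16 genes of serum response factor, its cofactors and their classic targets, Tagln, transgelin, rose from 88 to 161 reads with a log2 ratio of 1.05. The cofactor gene Mrtfb, listed as Mkl2, fell from 209 to 89 reads with a log2 ratio of -1.04. It was the lower call among the 116, and under the other scalings its log2 ratio was -0.95 to -0.91, short of 2-fold. These calls were 6.25% of the list each way, against 2.81% and 7.98% of all genes tested. The median of that list was 0.39. Tpm1, Tpm2 and Cald1 stand both in it and in the myosin II and tropomyosin list.

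**Figure D5:**
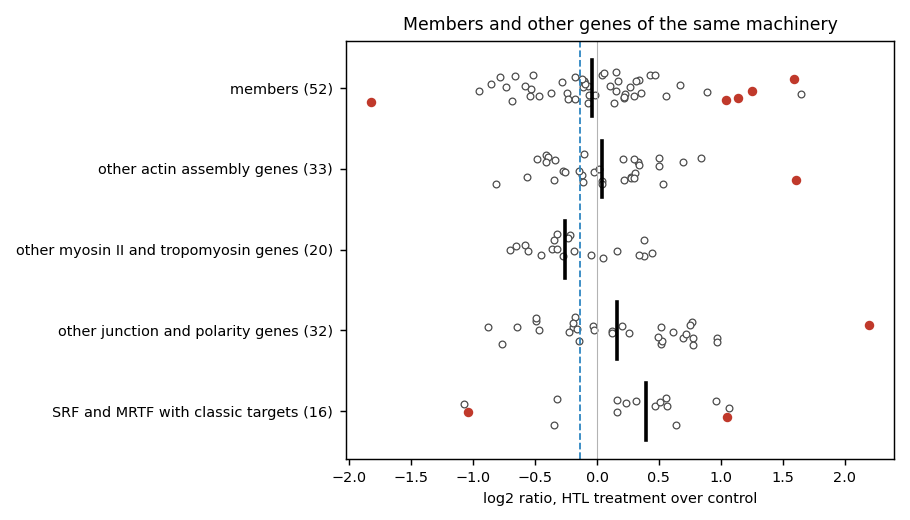
Log2 ratio of HTL treatment over control for the 52 genes tested and for 4 lists of other genes of the same machinery, with the number tested in brackets, filled points for genes past the 2-fold call, thick bars at each median and a dashed line at the median of all genes tested. The medians run from -0.26 for other myosin II and tropomyosin genes to 0.39 for serum response factor with its targets, lists that share Tpm1, Tpm2 and Cald1.

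Markers of surface ectoderm and epithelium are given beside the junction genes. The list had 11 genes, of which Cdh1, Grhl2 and Grhl3 are described above, and Krt5 and Krt14 were not analysed here. Of the 8 that are not among the 55, 5 were tested and all 5 had log2 ratios above 0, as did 41.3% of all genes tested, and their summed level was 36.0 FPKM in control and 71.0 after HTL. Epcam, an epithelial adhesion protein, made up most of that sum, with 733 and 1263 reads and a log2 difference of 0.97 (0.84 to 1.10) that was 1.06 to 1.11 under the other scalings, past 2-fold. With column totals Krt8 alone of the 5 passed the 2-fold call, with 4 and 20 reads, and the intervals of Krt18 (-0.50 to 3.08) and Tfap2a (-0.53 to 1.61) crossed 0, these 3 being named after their values were seen. Within the same list Grhl2 was called lower and Grhl3 had a log2 ratio of -0.24. Trp63, which defines stratified epithelium, had 2 reads and 1 read. The part of these markers in the rise of Cdh1, Cdh3, Cldn6 and Pard6b was not tested.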

How the data were processed

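Total RNA of 1 control and 1 HTL-treated NE4C culture was sequenced, and the sample titles gave the groups. The study's methods state that RSEM was run on reads mapped to mouse. Per the labels and the submitters' processing notes, a TruSeq kit and build mm9 were used. Software versions, mapper, annotation and strand use are not given in the sources used here. The authors deposited estimated counts per gene, not normalized, which can be fractional where similar genes share reads. The deposited FPKM values were adjusted by the authors for transcript length and depth. The table's columns of the authors' own comparison (log2 ratio, p, FDR, direction) were not used.

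Estimated counts were rounded to whole numbers (10350646 and 9102057 reads). Genes reaching 10 reads summed over both libraries were compared by a two-sided exact conditional binomial test with Benjamini-Hochberg adjustment over 13442 genes, with 0.5 read added for log2 ratios and exact Clopper-Pearson intervals at 95%. It compares reads of 2 libraries rather than the conditions. Without replicates neither the quasi-likelihood test of edgeR nor DESeq2 could be fitted. No molecular identifiers mark the reads, so intervals cover counting error only. The scripts were tested on simulated data. Any of the 55 genes could be named. From other lists the called genes with the largest rise and fall were named, and from marker lists the gene with the most reads and those under 10 reads. Of the other lists, 1 is counted in the totals and otherwise not reported here. The genes, lists and pairs were chosen with earlier results of these data known. Coordinates are from GENCODE M1 on NCBIM37. Tools were R 4.3.3, edgeR 4.0.16, DESeq2 1.42.0, Python 3.11.15 and scipy 1.17.1. Alternatives were 3 other scalings, other filters, 5 reads added, FPKM + 1, length deciles, summed actins, assumed variation between cultures and other cutoffs.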

Additional observations from a re-analysis of the deposited data

How the results depend on the processing

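No paired analysis was possible because control and HTL treatment had 1 library each, so that none could be left out either. The 5 calls became 2 (Cdh1 and Myl9) with the ratio of FPKM + 1, 12 at a 1.5-fold cutoff and 0 with an assumed coefficient of variation between cultures of 0.2, and ran from 4 to 7 under the other settings. The 5 calls among other genes of the machinery became 3 with FPKM + 1 or an assumed variation of 0.1, 8 relative to the length decile, 24 at 1.5-fold and 0 with an assumed variation of 0.2, and under the 3 other scalings there were 6 higher and 0 lower, without Mrtfb. The median log2 ratio of -0.04 became 0.21 relative to the length decile, and it was 0.089, 0.095 and 0.052 under scaling by TMM, by median of ratios and by upper quartile, where the median of all genes was -0.007, -0.001 and -0.044. With a mean of at least 50 reads it was 0.011. Relative to the length decile 10 genes changed sign, namely Pfn1, Enah, Arhgef11, Afdn, Myh10, Abl1, Abl2, Zyx, Actn1 and Lmo7. Cdh3 passed the 2-fold call under TMM and median of ratios, and Cdh3 and Lrp2 did relative to the length decile. Depth limits Ocln, Cldn3, Cldn7 and Grhl3, which had few reads. The cause of these shifts was not tested.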

Other observations

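Families around the described genes were looked up after values had been seen, so the genes named here were chosen by their values. Of 20 Eph receptors and ephrins tested, Ephb3 rose from 47 to 97 reads and Efnb1 from 199 to 401 reads, with log2 ratios of 1.22 and 1.19. Epha8 fell from 296 to 113 reads, with a log2 ratio of -1.20. These calls were 10% higher and 5% lower, against 2.81% and 7.98% of all genes tested. Epha1, with 374 and 185 reads, and Ephb4, with 625 and 297 reads, were lower at 1.5-fold beside Efna5. The ephrin-B receptor and ligand that rose were scarce, at 1.08 and 5.66 FPKM in the control library, and Efnb2, the most abundant of the family, was at 25.2 and 25.1 FPKM.

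Of 13 cadherins tested, Cdh1 was called higher, and Cdh9 and Cdh8, both type II cadherins, were called lower, or 7.69% higher and 15.4% lower against 2.81% and 7.98% of all genes tested. Cdh9 fell from 156 to 33 reads, with a log2 ratio of -2.04 (-2.64 to -1.51), and Cdh8 from 189 to 70 reads, with a log2 ratio of -1.24. Cdh4, R-cadherin, had 103 and 48 reads and was lower at 1.5-fold. Of 14 listed claudins 5 were tested, and Cldn12, the most abundant, had 500 and 673 reads, with a log2 ratio of 0.61. Cldn34c1 had 30 and 8 reads, with a log2 ratio of -1.66 (-3.06 to -0.56) and no call. The median log2 ratio of the 5 claudins was -0.54, with 2 above 0 and 3 below. Among 14 transcription and splicing factors of epithelial state, Zeb2, a repressor of Cdh1, fell from 661 to 248 reads with a log2 ratio of -1.23 (-1.45 to -1.02). With Grhl2 that made 14.3% of these factors lower, against 7.98%. The median of the 14 was 0.16, and 8 of them lay above 0. Other repressors of Cdh1 had 214 and 229 reads (Zeb1), 18 and 20 reads (Snai1), 5 and 13 reads (Snai2) and 217 and 197 reads (Twist1), and none of these was called. Ovol2, which represses Zeb genes, had 4 and 12 reads and no call, with an interval of 0.048 to 3.86. Ovol1 had 7 and 3 reads and Ovol3 26 and 20 reads, also without a call. The part of these factors in the rise of Cdh1 was not tested. Of 3 keratins tested, Krt8, given above, was called higher and Krt222, with 42 and 11 reads, lower, or 33.3% each way against 2.81% and 7.98%.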
